A study of Mus musculus with 2 samples.

Results

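Gal, Msln and Tgm2 are 3 mouse genes that stood near 0 in one library of this series and high in the other, and they were chosen by those values, low without doxycycline and high with it. They are 3 of the 14261 rows of the deposited table, each found by its symbol on 1 row, and all 3 passed the floor on low values used below. The cells were mouse embryonic stem (ES) cells, given as TRE-ESC in the labels, whose RNA was sequenced after growth in suspension in low adsorption dishes, with 36 h as the labelled time. One culture, labelled TRE-suspend-adox-36h, received doxycycline (dox), and the other, labelled TRE-suspend-36h, received none. Both were kept in N2B27 medium with LIF and the inhibitor pair 2i, a combination that keeps such cells naive and pluripotent. By its title the series is about c-Jun, the AP-1 protein encoded by Jun, and its effect on differentiation. The sources used here do not say whether the TRE-ESC line is 1 clone. Each group had 1 library, so no difference below has a replicate check, a test or a spread between cultures.

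Gal encodes the precursor of galanin, a secreted neuropeptide that is cut out of a longer chain by prohormone convertases, trimmed, amidated in some species and read by 3 G protein-coupled receptors. Msln encodes the precursor of mesothelin, a protein held on the cell surface by a glycosylphosphatidylinositol (GPI) lipid anchor after furin releases an N-terminal fragment, and known as a marker of the mesothelium that lines body cavities. Tgm2 encodes transglutaminase 2, an enzyme that cross-links proteins through glutamine and lysine side chains in the presence of calcium, binds GTP, and outside the cell associates with fibronectin and integrins. The genes have no common family or pathway in the textbook sense and lie on different chromosomes.

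Gal, a protein-coding gene, is annotated in GRCm38 on chromosome 19, minus strand, at 3409915 to 3414544, and its longest coding transcript has 6 exons. The stretch from 250 bases before to 50 bases after its start is shown because it is the promoter of a gene that was listed at 0 in one library. It spans chr19:3414495-3414794 on the minus strand in RefSeq's GRCm38.p6, and CpG dinucleotides are in capitals.
Gal promoter: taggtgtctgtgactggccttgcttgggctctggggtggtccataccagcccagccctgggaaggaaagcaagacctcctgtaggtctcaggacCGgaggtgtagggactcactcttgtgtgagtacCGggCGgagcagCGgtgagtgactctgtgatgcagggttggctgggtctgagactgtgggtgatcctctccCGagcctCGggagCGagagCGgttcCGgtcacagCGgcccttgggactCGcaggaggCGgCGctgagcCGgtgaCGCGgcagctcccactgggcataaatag
The window held 16 CpG dinucleotides, against a median of 7 over the 32851 promoters of the table, and 63.3% of its bases were G or C, against a median of 52.7%. Fewer CpG dinucleotides stood in 67.0% of those promoters. A second coding transcript of Gal begins 97 bases downstream of the first start, outside the window. The window was searched on both strands for TGACTCA, the consensus of AP-1 sites, for TGACGT, 6 bases of the cyclic AMP response element, and for TATAAA, and held none of them. Among the 13558 promoters of genes with a row, 3.75% held TGACTCA, 10.8% TGACGT and 7.69% TATAAA. The RefSeq promoter table gave an entry for Gal, and no promoter is shown for Msln and Tgm2.

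Msln is annotated on chromosome 17, minus strand, at 25748613 to 25754378 in GRCm38, with 16 exons in its longest coding transcript of 2165 bases. Tgm2 is annotated on chromosome 2, minus strand, at 158116402 to 158146436, with 13 exons in its coding transcript of 3596 bases, and the longest coding transcript of Gal has 788 bases. Exons of Rprd1b, a gene on the opposite strand, share 370 of the 4608 exonic bases of Tgm2 (8.03%), and those of the noncoding Gm20412 share 633 (13.7%). No source used here states that counting used strand, so reads of such stretches could not be told apart. Rprd1b, which encodes a regulator of RNA polymerase II, stood at 117 with dox and 113 without. Gm20412, whose overlap is the larger, was not analysed here, and the part of either overlap in the value of Tgm2 was not tested.

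The question set by the design is what dox changed in suspension. Values are the authors' normalized whole numbers, on a scale on which both libraries had quartiles of 14, 62 and 184. The depth of each library is unknown, so no counting interval is given. Jun, the gene that the series concerns, stood at 3821 with dox and at 55 without.

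Galanin RNA was listed at 451 with dox and at 0 without dox. No fold is given here for Gal, because its value without dox was 0 and its ratio depends on the pseudocount. Msln stood at 684 with dox and at 8 without dox. Tgm2 stood at 1491 with dox and at 16 without dox. Without dox, Gal was thus at the bottom of the table, Msln below its lower quartile of 14 and Tgm2 just above it, and with dox all 3 lay above the upper quartile of 184. With a pseudocount of 10 added to each value, Tgm2 was 57.7-fold higher with dox and Msln 38.6-fold higher. Both folds are descriptions of the difference by which the genes were picked. All 3 genes counted as at least 2-fold higher with dox, as did 9.23% of the 8547 genes that reached the floor, a value of at least 50 in either library. At least 2-fold lower were 5.49%, and nothing is read from the members' own count. In bulk RNA, fewer cells of a type and less RNA per cell cannot be told apart.

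**Figure D1:**
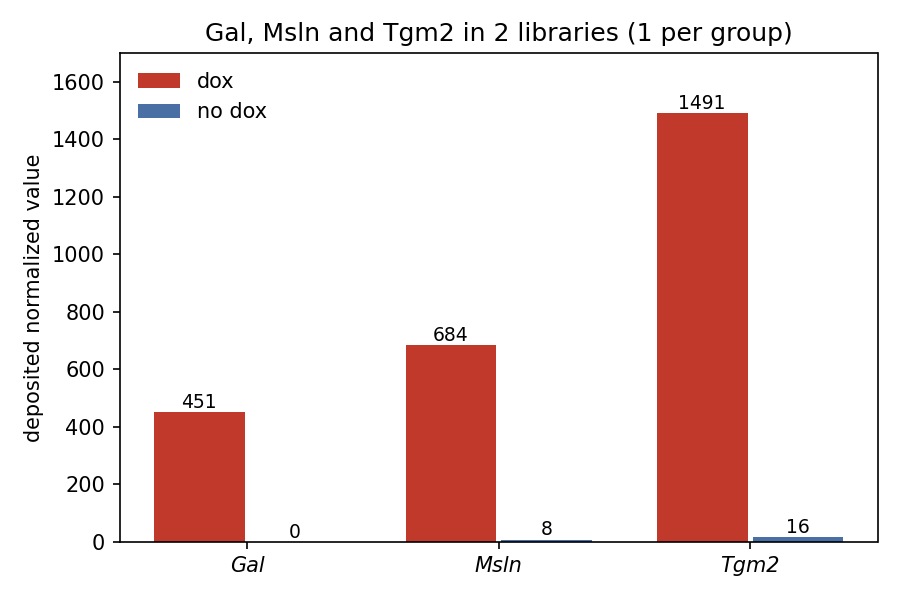
Deposited normalized values of Gal, Msln and Tgm2 (vertical axis, from 0) in the dox library (red, left bar) and the library without dox (blue, right bar), 1 library per group and so no error bars. The dox bars stand at 451, 684 and 1491, and the bars without dox at 0, 8 and 16.

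The values place each gene within its library. By value, Tgm2 had the rank 209 of 14261 rows with dox and 10426 without. Msln had the rank 721 with dox and 11432 without, and Gal 1306 with dox and 12890 without. Tgm2 thus lay above 98.5% of rows with dox and above 26.1% without. Msln lay above 94.9% of rows with dox and above 18.5% without. Gal lay above 90.8% of rows with dox and, at 0, above none without. A longer transcript yields more fragments, so the order of the 3 genes depends on whether length is considered. Per kilobase of the longest coding transcript, the normalized value with dox was 572 for Gal, 415 for Tgm2 and 316 for Msln. Without dox it was 0 for Gal, 4.45 for Tgm2 and 3.70 for Msln. Gal was therefore first with dox per length and last by value, although the normalization of these values may not keep them proportional to length. Jun had 1198 with dox and 17.2 without on the per-length scale.

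Among genes that began from the same value, the members stood at or near the top. Without dox 1372 rows stood at 0, Gal among them, and with dox 857 rows did. The 1372 rows had a median with dox of 1 and an upper quartile of 8, and 629 were at 0 in both libraries. Gal had the largest dox value of these rows, followed by Timp2, which encodes an inhibitor of matrix metalloproteinases, at 398, and by the simple epithelial keratin gene Krt7 at 374. Of the 193 genes at 8 without dox, with a median of 10 with dox, only Gsn, the gene of the actin-severing protein gelsolin, had a larger dox value than Msln, at 1392. The next below Msln was Fosl2, which encodes an AP-1 subunit of the Fos family, at 418. Of the 110 genes at 16 without dox Tgm2 had the largest dox value, and the next, Dusp18, a dual-specificity phosphatase gene, stood at 108. Values of 50 or more with dox were reached by 38 of the genes at 0 (2.77%), 12 of those at 8 (6.22%) and 9 of those at 16 (8.18%). Gsn, Fosl2, Timp2, Krt7 and Dusp18 were named here as neighbours in these orders after their values were seen. These orders restate the difference by which the members were chosen.

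**Figure D2:**
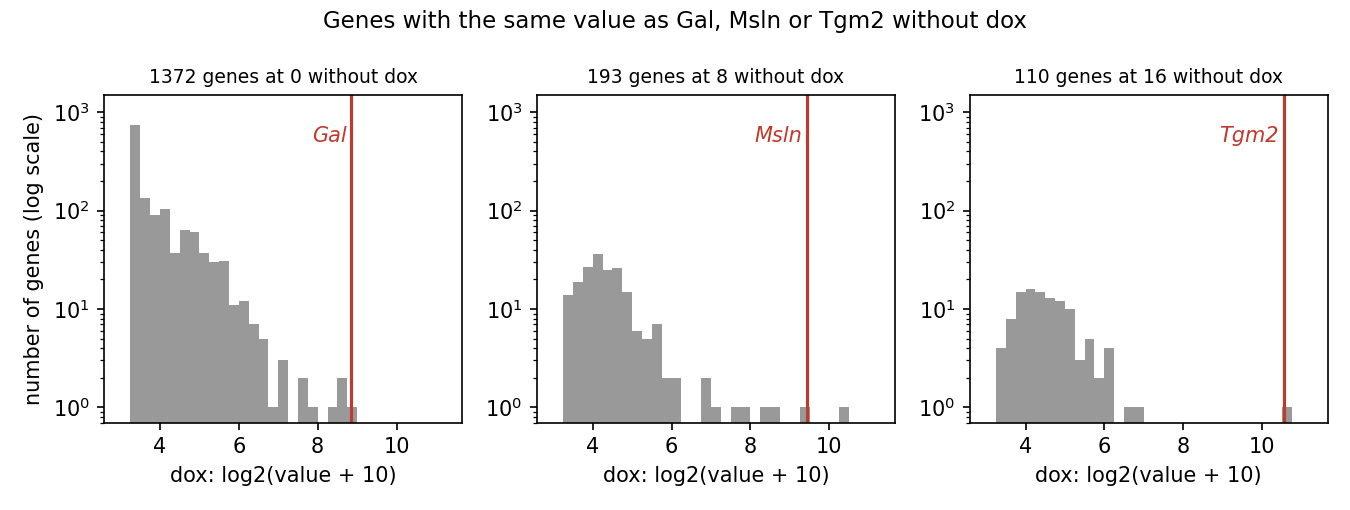
Number of genes (vertical, log scale) by log2 of the dox value plus 10 (horizontal) among the 1372, 193 and 110 genes that shared the values 0, 8 and 16 of Gal, Msln and Tgm2 without dox. The red line marks each gene, which lies far right of the bulk; 1 gene, Gsn, lies right of Msln.

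Few other genes had values within the bounds of the 3 members. Of 3836 rows at 16 or less without dox, 14 (0.365%) stood at 451 or more with dox, the bounds being the outermost values of the members. Besides the members the 14 were Gsn, Col7a1, Flnc, Cldn6, Col5a3, Col4a1, Plaur, Krt19, Capn2, Ppl and Anxa5. Col7a1, Col5a3 and Col4a1 encode collagen chains, Ppl the desmosomal plaque protein periplakin, Capn2 a calpain protease and Anxa5 an annexin. In the mirror corner, 0 of 3819 rows at 16 or less with dox stood at 451 or more without. The bounds are the values by which the members were chosen, so these counts only describe the table and support nothing about the members. Just outside these bounds, Cryab, a small heat shock protein gene, stood at 434 with dox and 6 without, and Perp, a desmosome-associated gene, at 600 with dox and 17 without.

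RefSeq promoters were found for 10 of these 14 genes. TGACTCA stood in those of 2, Plaur and Capn2, both shown because they are the matches to the AP-1 consensus among genes with the members' pattern. Each sequence has 10 bases on either side of the motif, which is in capitals.
Plaur, chr7:24462404-24462430, plus strand: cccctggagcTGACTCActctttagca
Capn2, chr1:182517777-182517803, minus strand: catccgctccTGACTCAtccgatgttt
The match began 69 bases before the annotated start in Plaur and 183 bases before it in Capn2, in GRCm38.p6. TGACGT stood in 2 others, Flnc and Cldn6, and TATAAA in 0. Such a match describes the letters and not a bound site. The 10 genes had 13 promoters, too few to set a share against the 3.75% of promoters with TGACTCA.

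The genes nearest in pattern were found by distance on the log2(value + 10) scale over the 2 libraries, which is a likeness over 2 points only. Nearest to Gal were Timp2, Krt7, Slco2a1, a prostaglandin transporter gene, Capn2 and Ppl, at distances from 0.18 to 0.49. Slco2a1 stood at 377 with dox and 2 without. Nearest to Msln were Cldn6, a tight junction claudin gene, Flnc, the gene of the actin cross-linker filamin C, Col4a1, Col5a3 and Perp, at 0.49 to 0.61. Cldn6 stood at 749 with dox and 3 without, and Col4a1, a basement membrane collagen gene, at 507 with dox and 12 without. Nearest to Tgm2 were S100a6, a calcium-binding protein gene, Gsn, Anxa2, Lgals3 and Padi4, at 0.33 to 1.27. S100a6 stood at 1293 with dox and 21 without, Anxa2, an annexin gene, at 1249 with dox and 27 without, Lgals3, the galectin-3 gene, at 2326 with dox and 42 without, and Padi4, a peptidylarginine deiminase gene, at 615 with dox and 19 without. Gal and Msln lay farther from the other members than from any of their 5 nearest genes, while Tgm2 lay at 1.23 from Msln and at 1.27 from Padi4. The distance was 1.03 between Gal and Msln, 1.23 between Msln and Tgm2, and 2.19 between Gal and Tgm2, and 24 other genes lay nearer to Gal than Msln did.

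**Figure D3:**
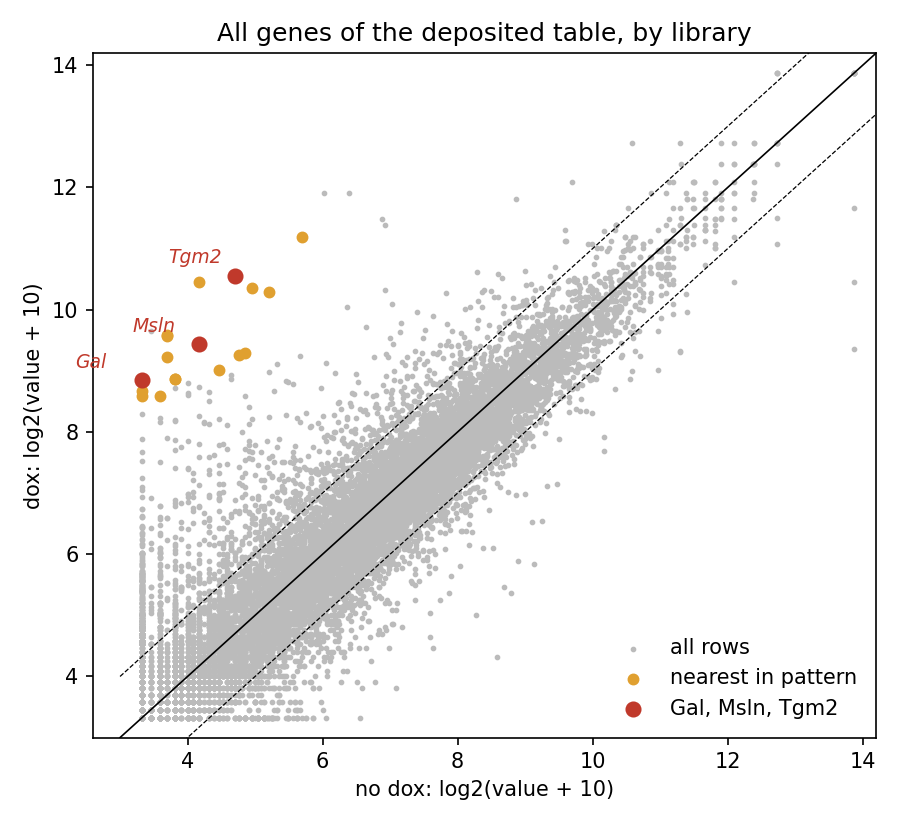
Each point is a row of the table, by log2(value + 10) without dox (horizontal) and with dox (vertical); the solid line marks equal values and the dashed lines 2-fold. Gal, Msln and Tgm2 (red) and the genes nearest to them in pattern (orange) lie in the upper left, where 14 genes fell within the members' bounds.

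Most genes beside the 3 members on their chromosomes were within 2-fold. Of the 18 nearest protein-coding genes with a row, 3 on each side of each member, 1 passed 2-fold upward with dox, 0 passed it downward, 12 were within 2-fold and 5 were under the floor. This is near the background of 9.23% higher and 5.49% lower, and so is no result about these neighbours. Cpt1a, the carnitine palmitoyltransferase gene 24.2 kb from Gal, stood at 190 with dox and 376 without, and Ppp6r3, 40.4 kb away on the other side, at 579 with dox and 646 without. Lrp5, a Wnt co-receptor gene 170 kb from Gal, stood at 484 with dox and 281 without. Beside Msln, Rpusd1, at 17.1 kb, stood at 47 with dox and 45 without, and Narfl, at 19.4 kb, at 132 with dox and 71 without. Chtf18, a replication factor gene 21.2 kb from Msln, stood at 224 with dox and 290 without. Beside Tgm2, Tti1, at 88.0 kb, stood at 110 with dox and 82 without. The gene past 2-fold was the noncoding RNA host Snhg11, annotated as protein-coding in GENCODE M21 and 229 kb from Tgm2, at 176 with dox and 76 without. Lbp, the nearest gene with a row on the side of Tgm2's start, stood at 0 with dox and 1 without. The other neighbours, Mrpl21, Ighmbp2 and Kmt5b beside Gal, Lmf1, Haghl and Fam173a beside Msln, and Ctnnbl1 and Ralgapb beside Tgm2, were within 2-fold or under the floor.

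Of the genes that act on or beside galanin, those that process peptide precursors were in part higher with dox. In a list of 17 prohormone processing and dense-core granule genes 11 had a row and 7 reached the floor. Of these 4 were at least 2-fold higher, 0 lower and 3 within 2-fold, beside 9.23% higher and 5.49% lower over all genes at the floor. The median log2 ratio was 1.20, against −0.08 over all those genes. Over all 11 genes, without a floor, it was 0.48. Cpe, the carboxypeptidase that trims basic residues from cut prohormones, stood at 399 with dox and 29 without, 10.5-fold higher. Pam, the enzyme that amidates peptides at a C-terminal glycine, stood at 146 with dox and 28 without. Furin, the convertase of the constitutive secretory pathway, stood at 518 with dox and 156 without, and Cpd, a related carboxypeptidase, at 169 with dox and 68 without. The neuroendocrine convertase gene Pcsk1 was within 2-fold, at 63 with dox and 78 without. The granule cargo genes Chga, at 12 with dox and 27 without, and Vgf, at 24 with dox and 0 without, were under the floor. The genes with the difference thus encoded processing enzymes, whereas the cargo genes Chga and Vgf had low values. The receptor genes Galr1, Galr2 and Galr3 and the related peptide genes Galp and Spx were not analysed here.

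Most other peptide precursor genes had low values where they had a row. Of 41 listed, 12 had a row and 2 reached the floor, 1 of them higher and 1 lower. Over all genes at the floor 9.23% were higher and 5.49% lower, and 2 genes are too few to set a share against these. With a pseudocount of 50, or with the median of all genes set to 0, 0 of the list were lower. Nppb, the natriuretic peptide B gene, stood at 86 with dox and 3 without, and Trh, the precursor of thyrotropin-releasing hormone, at 412 with dox and 862 without. Penk, the enkephalin precursor gene, stood at 3 with dox and 1 without, Npy at 4 with dox and 18 without, and Vip, Nts and Cck at 0 in both libraries. Beside Gal, no precursor gene of this list was at 0 without dox and at the floor with dox.

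Msln marks mesothelium in adult tissue, and the other markers of that cell type were split between high and low values. Wt1, a transcription factor gene of mesothelium, stood at 0 with dox and 1 without, the uroplakin gene Upk3b at 0 in both, Lrrn4 at 5 with dox and 4 without and Bnc1 at 2 with dox and 4 without. Of 18 listed mesothelial genes 15 had a row and 6 reached the floor, 5 of them at least 2-fold higher and 0 lower, against 9.23% and 5.49% of all genes at the floor. These 5 were Krt7, Krt8, Krt18 and Krt19, keratin genes shared by simple epithelia, and Pdpn, the podoplanin gene. Krt8 stood at 2672 with dox and 111 without, Krt18 at 395 with dox and 10 without, Krt19 at 474 with dox and 4 without, and Pdpn at 483 with dox and 80 without. Ezr, the gene of the membrane linker ezrin, was within 2-fold, at 840 with dox and 826 without. Over the genes at the floor the log2 ratio had a median of 4.41, or 4.34 without Krt7, which was at 0 without dox. Over all 15 genes, without a floor, it was 0.10, and the values of the list summed to 5283 with dox and 1088 without. Of the 9 listed genes under the floor, Aldh1a2, a retinaldehyde dehydrogenase gene, had the largest value with dox, at 31 with dox and 20 without, and Nkain4 stood at 6 with dox and 27 without. Mslnl, the neighbouring paralog, and Muc16, the mucin that mesothelin binds, were not analysed here.

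Genes of the machinery that attaches the GPI anchor of mesothelin were mostly within 2-fold. Of 28 assembly genes 26 had a row and 18 reached the floor, with 0 at least 2-fold higher, 1 lower and 17 within 2-fold, and a median log2 ratio of −0.15. These shares are near or below the 9.23% and 5.49% of all genes, and the median is near the −0.08 of all genes. The lower gene was Piga, which encodes the catalytic subunit of the first step, at 151 with dox and 353 without. Pigt, a subunit of the transamidase that joins anchor and protein, stood at 369 with dox and 304 without. Genes of other GPI-anchored proteins were split. Of 48 listed, 37 had a row and 21 reached the floor, with 8 higher and 1 lower, against 9.23% higher and 5.49% lower over all genes. Their median was −0.20, or 0.14 without a floor and 0.42 if the floor was 250. Plaur, the urokinase receptor gene, stood at 479 with dox and 15 without, the same kind of difference as Msln. Cd109, a protease inhibitor-like surface protein gene, stood at 547 with dox and 56 without, and Sema7a, a semaphorin gene, at 214 with dox and 13 without. Gpc1, a glypican gene, stood at 196 with dox and 20 without, and Cd24a at 381 with dox and 143 without. The lower gene was Tdgf1, a Nodal co-receptor gene of ES cells, at 231 with dox and 1137 without. Alpl, the alkaline phosphatase gene used as an ES cell marker, stood within 2-fold at 1022 with dox and 1643 without.

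In the transglutaminase family the difference of Tgm2 was not seen in the measured relatives. Tgm1, the keratinocyte transglutaminase gene, stood at 184 with dox and 126 without. Tgm3, the epidermal form, stood at 1 with dox and 0 without, and Tgm4, the prostate form, at 5 with dox and 12 without. Of the 8 other family genes listed these 3 had a row and 1, Tgm1, reached the floor. The remaining family genes were not analysed here.

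Genes of proteins that bind transglutaminase 2 or serve as its substrates had 7 of 16 members at the floor higher with dox, 1 lower and 8 within 2-fold, where all genes gave 9.23% higher and 5.49% lower. All 18 listed genes had a row, and the median log2 ratio of the 16 was 0.57, against −0.08 over all genes. Over all 18 genes, without a floor, it was 0.44. With a pseudocount of 50, 5 genes of the list were at least 2-fold higher. Itgb1, the beta 1 integrin chain with which transglutaminase 2 forms surface complexes, stood at 4342 with dox and 818 without, 5.26-fold higher. Its partner chain gene Itga5 stood at 473 with dox and 113 without. Fn1, the gene of fibronectin, which transglutaminase 2 binds, was within 2-fold, at 5339 with dox and 6785 without. Sdc4, the heparan sulfate proteoglycan gene of the same surface complexes, stood at 594 with dox and 440 without. Of substrates, Anxa1 stood at 828 with dox and 90 without, S100a11 at 1045 with dox and 280 without, and Spp1, the osteopontin gene, was lower, at 988 with dox and 2679 without. Mfge8, a gene of a secreted integrin ligand, stood at 527 with dox and 254 without. Itgb3, another integrin chain gene of the list, was under the floor, at 38 with dox and 25 without. Itgb1 and Itga5 were thus past 2-fold, whereas Itgb3, Fn1 and Sdc4 were not.

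**Figure D4:**
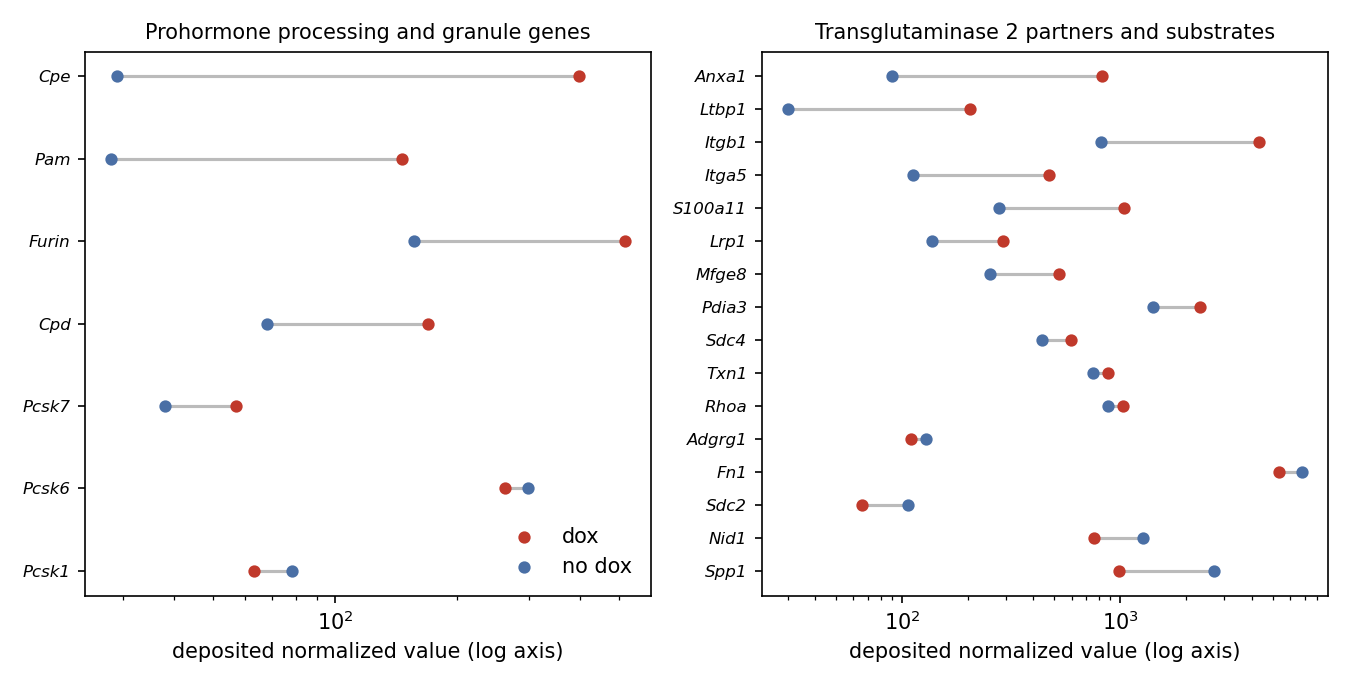
Deposited normalized values (horizontal, log axis) with dox (red) and without dox (blue) of the genes at the floor in 2 lists, prohormone processing and granule genes on the left and transglutaminase 2 partners and substrates on the right, ordered by log2 ratio. Cpe and Pam on the left and Anxa1, Ltbp1 and Itgb1 on the right have the widest gaps with dox higher, and Spp1 is the gene past 2-fold in the other direction.

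Tgm2 is a classical target of retinoic acid, and few listed genes of that pathway reached the floor. Of 26 listed, 20 had a row and 7 reached the floor, with 1 at least 2-fold higher and 2 lower, and their log2 ratios had a median of −0.36. The background over all genes was 9.23% higher and 5.49% lower, the median being −0.08, and 7 genes are too few to set a share against these. The receptor genes Rara, at 53 with dox and 116 without, and Rarg, at 10 with dox and 60 without, were lower. Among retinoic acid pathway genes under the floor were Rarb at 6 with dox and 0 without and Stra6 at 27 with dox and 0 without. None of the pathway genes at the floor was at 0 in the library without dox.

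**Figure D5:**
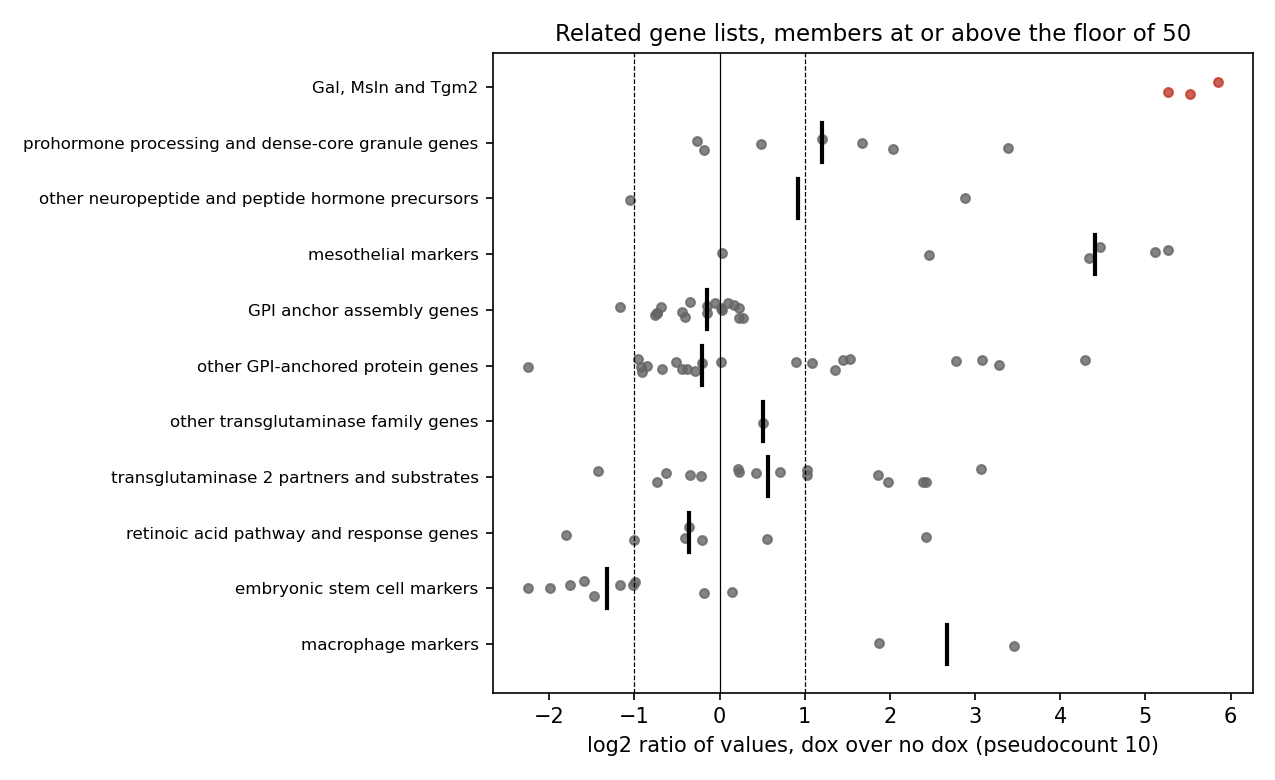
Log2 ratio of values, dox over no dox with a pseudocount of 10, for Gal, Msln and Tgm2 (red, top) and for the members at or above the floor of 50 in each related list (grey), with the list median as a black bar and 2-fold as dashed lines. The ratio of Gal, which was at 0 without dox, depends on the pseudocount; GPI anchor assembly genes sit near 0, at a median of −0.15, and mesothelial genes spread up to the keratins, at a median of 4.41.

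ES cell markers and markers of other cell types were read beside the members. All 10 ES cell markers reached the floor in both libraries, their values summed to 10398 with dox and 16586 without, and 7 were at least 2-fold lower with dox, against 5.49% of all genes. Pou5f1, which encodes Oct4, stood at 3572 with dox and 3230 without, and Nanog at 623 with dox and 2508 without. Of 12 feeder fibroblast markers 0 reached the floor, and the list summed to 99 with dox and 42 without. Col3a1 stood at 39 with dox and 2 without, Col1a2 at 19 with dox and 8 without, and Dcn and Lum at 0 in both libraries. Of 8 macrophage markers, a cell type known for Tgm2, 5 had a row and 2 reached the floor. These 2, Csf1r and Cd68, were at least 2-fold higher, against 9.23% of all genes at the floor. Such a list of 2 genes is too short to set a share against that. Csf1r stood at 111 with dox and 1 without, and Cd68 at 96 with dox and 19 without. The macrophage genes summed to 229 with dox and 28 without, with Lyz2 at 0 in both, Itgam at 3 with dox and 8 without and Ptprc at 19 with dox and 0 without. The part of fibroblast and macrophage genes in the values of Gal, Msln and Tgm2 was not tested.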

How the data were processed

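RNA-seq of 2 mouse ES cell cultures, 1 with dox and 1 without, was analysed. The submitters' processing notes name bcl2fastq, Bowtie2, RSEM and the build mm10. Their versions, the annotation, the normalization and any filter are not stated there. The deposited values were handled as a score, which the authors appear to have normalized and then rounded, since 75.5% of sorted positions were equal between libraries (tolerance 0). No count model was used, and 0 other columns held sample values.

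Log2 ratios are dox over no dox with a pseudocount of 10. A gene was counted where the larger of its values reached 50 and the ratio reached 2-fold. With 1 library per group no test was made. The members and the 13 gene lists were chosen with earlier results of these data known. Named were, per list, up to 6 genes past 2-fold with the largest values or else the top 2, the 5 genes nearest in pattern and 3 flanking genes a side; others named were chosen after their values were seen. One gene that the rule takes is left unnamed. Clone-style symbols were left out of the nearest and flanking genes. Symbols were matched to GENCODE M21 (14139 of 14259), and promoters to RefSeq GRCm38.p6. Trends on transcript length were removed with lowess (fraction 0.3) in an alternative setting only, and not in the main ratios. Steps were tested on simulated data and run in Python 3.11.15 with pandas 2.3.3 and statsmodels 0.14.6.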

Additional observations from a re-analysis of the deposited data

How the results depend on the processing

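All 3 members stayed past 2-fold higher with dox under each pseudocount, centring and length setting tried, but the size of the ratio followed the pseudocount, most of all for Gal, which was at 0 without dox. With a pseudocount of 10 the log2 ratios were 5.53 for Gal, 5.27 for Msln and 5.85 for Tgm2. With a pseudocount of 1 they were 8.82, 6.25 and 6.46, and with 50 they were 3.32, 3.66 and 4.55, so that Gal was the highest of the 3 with 1 and the lowest with 50. With the median of all genes set to 0 they were 5.60, 5.35 and 5.93, and with the length trend removed 5.87, 5.40 and 5.87. Of all genes, 789 were at least 2-fold higher and 469 lower. These counts became 498 and 171 with a pseudocount of 50, 1255 and 796 with no floor, and 298 and 147 with a floor of 250. The list counts that a setting moved by more than 1.5 times include GPI-anchored protein genes, with 5 higher for a pseudocount of 50 and 4 lower for a pseudocount of 1, and prohormone processing genes, with 2 higher for a floor of 250. Of the retinoic acid genes, 0 were lower with a pseudocount of 50. The floor admits a gene on its larger value, so list medians over genes at the floor lean to genes that are high in one library. No paired analysis was possible because each group has 1 library, and no replicate could be left out. The depth of each library is unknown, so how far low values such as 0, 8 and 16 differ from each other could not be judged.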
